A study of Mus musculus with 10 samples.

Results

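The comparison is between the T567D ezrin line and parental K7M2 cells. Its members are the 2 libraries labelled T567D and the 2 labelled as parental cells, 4 of the 10 libraries of the series, read over the 12595 of 41743 gene names that passed a count filter. K7M2 is a mouse osteosarcoma line, known for spreading to the lung. The parental group is this line with its own ezrin gene. In the T567D group the endogenous ezrin gene was disrupted by CRISPR/Cas9, and the cells then stably carried an ezrin cDNA in which threonine T567 is replaced by aspartate. The other derived lines, used only to show where T567D differs, carried an empty vector, wild-type ezrin cDNA or ezrin T567A cDNA after the same disruption, 2 libraries each. All cells were grown in culture, and poly-A RNA was sequenced with strand-marked libraries. A common tag in the names of all 4 derived lines may stand for a single disrupted clone, and each cDNA was present in 1 stable line. Gene disruption, cloning, transfection, passage and the T567D cDNA therefore cannot be told apart in T567D minus parental. Whether replicate libraries were grown as independent cultures is not in the labels. All p-values therefore reflect the variation between the sequenced libraries, and this variation may be only technical.

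Ezrin, radixin and moesin, the ERM proteins, tie the actin cortex to membrane proteins such as CD44. In the closed form the head of an ERM protein is bound to its own tail; binding of a membrane lipid and phosphorylation of a conserved threonine near the end of the tail open it. In ezrin that residue is T567. Aspartate at this site mimics the phosphorylated state, and alanine cannot be phosphorylated. Ezrin is known in osteosarcoma for its part in metastasis.

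The mutated residue is shown first, since it is the change by which the T567D line is named. Ezr lies on chromosome 17, 6738041 to 6782784, minus strand (GRCm38). The codon of T567 is in exon 13 of 13, within the coding sequence of 586 codons, and the stretch below covers chr17:6739333-6739395 on the minus strand. Capitals mark the threonine codon, at 6739363 to 6739365, as it stands in the mouse reference.
Ezr coding strand: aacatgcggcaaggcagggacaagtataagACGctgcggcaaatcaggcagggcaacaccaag
Gene counts do not show which codon a read carried, so the T567D codon itself was not seen here.

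Levels are in CPM, the counts of a gene relative to the library total, with library totals scaled by TMM. Changes are log2 fold changes, T567D minus parental, ± standard error (SE). A gene was called at a Benjamini-Hochberg adjusted p under 0.05 in edgeR's quasi-likelihood test, fitted to all 10 libraries. Total counts were 17715944 and 17570903 in the parental and 17079467 and 16790455 in the T567D libraries, so that 3 counts equal 0.173 to 0.175 CPM in these 4 libraries. Mitochondrial genes took 0.844% and 1.05% of parental and 1.01% and 1.24% of T567D counts. Markers of osteoblasts summed to between 7188 and 7334 CPM in parental and between 5140 and 5545 CPM in T567D libraries. None of the 10 was at 0 in both lines, but Sp7, Bglap and Ibsp did not pass the count filter. The macrophage list summed to between 1178 and 1186 CPM in parental and between 1343 and 1356 CPM in T567D, nearly all of it Csf1r, while Adgre1, Tyrobp and C1qa were at 0. The endothelial, epithelial, cartilage, fat, muscle and lymphocyte lists each summed to at most 7.8 CPM in any of the 4 libraries, with 2 to 5 of their 6 or 7 markers at 0 in both lines.

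Ezr mRNA was 164.1 and 165.7 CPM in parental and 204.0 and 181.5 CPM in T567D libraries. It was a little higher in T567D, without overlap (0.22 ± 0.063, adjusted p = 0.0046). Without T567D replicate 1 the difference was 0.13 and did not pass the test (adjusted p = 0.14). The labels do not name the species of the cDNA, and how its reads were counted is not given in the sources used here. In the empty-vector line Ezr was 72.4 and 72.9 CPM, so transcripts assigned to the disrupted gene were still counted there. Msn, encoding moesin, read 642.1 and 666.6 CPM in parental and 641.9 and 674.1 CPM in T567D libraries, with overlap (0.01 ± 0.056, adjusted p = 0.92). In the other derived lines Msn lay between 375.0 and 534.3 CPM, below all 4 of these libraries, and T567D was above wild type by 0.32 (adjusted p = 0.0036). Msn lies on chromosome X, where the 12 other tested genes of its 5 Mb window had a median of 0.31 in T567D minus wild type. Rdx, encoding radixin, fell from 316.4 and 343.5 to 247.5 and 226.8 CPM (-0.48 ± 0.062, adjusted p = 1.3e-06). The 36 other tested genes of its window on chromosome 9 had a median of -0.27.

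Over all genes, 6972 of 12595 were called between T567D and parental, which is 55.4%. There were 3414 higher (27.1%) and 3558 lower (28.2%), around a median of all genes of -0.0035. Changes over 2-fold were called for 979 higher (7.77%) and 589 lower genes (4.68%), and those over 32-fold for 96 and 34. Against the other derived lines far fewer genes separated T567D: 2239 from the empty-vector line (17.8%; 9.43% higher, 8.34% lower) and 169 from the wild-type line (1.34%; 0.818% higher, 0.524% lower), but 5558 from T567A (44.1%; 21.6% higher, 22.5% lower). These comparisons share the T567D libraries. The counts per comparison are read as sizes only, since no test of the difference between them was run.

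Of the 19 tested among 24 listed ERM genes, scaffolds, kinases and membrane partners, 6 rose and 3 fell, 31.6% and 15.8% against 27.1% and 28.2% of all genes, and the list median was 0.01. The share that rose was thus near that of all genes. Cd44, the hyaluronan receptor that ERM proteins bind, was 386.2 and 405.0 CPM in parental and 580.6 and 583.1 CPM in T567D (0.56 ± 0.058, adjusted p = 4.8e-08). Podxl, encoding the sialomucin podocalyxin, rose from 1.45 and 0.99 to 7.51 and 6.14 CPM (2.47 ± 0.21, adjusted p = 2.6e-09). Sdc2, Slk and Pdpn rose by 0.39, 0.23 and 0.21. Slk is a kinase of the ERM threonine. Spn, encoding the sialomucin CD43, fell by 0.40, and Nf2, encoding the ERM relative merlin, fell by 0.35. The kinases Rock1, Rock2 and Stk10 and the scaffold Slc9a3r1 had changes between -0.10 and 0.00, none called.

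The 12 largest increases were in genes at or below 1.81 CPM in both parental libraries. Bambi, a decoy receptor of the TGF-beta family, had 3 parental counts in all against 11.15 and 8.94 CPM in T567D, a ratio of 115 with a 95% counting interval of 39.1 to 561. Pcdhgb7, a clustered protocadherin, was at 0 and 0.47 CPM in parental and 23.74 and 25.95 CPM in T567D libraries. Cftr, the chloride channel, was at 0 and 0.41 against 13.40 and 14.38 CPM. No gene of the 12 overlapped between the lines, a pattern that the rule for choosing them required. Plce1, a phospholipase C, rose by 5.79 ± 0.27 and Peg12 by 5.06 ± 0.21. Abi3bp, a matrix-binding protein, rose by 4.86 ± 0.22, Mtus1 by 4.85 ± 0.15 and the receptor Ephb6 by 4.51 ± 0.24. Tns1, encoding the focal adhesion protein tensin 1, went from 1.51 and 1.34 to 30.73 and 34.66 CPM. Pcdh7, another protocadherin, rose by 4.51 ± 0.13, the bone-inducing ligand Bmp2 by 4.40 ± 0.18 and the cation channel Trpa1 by 4.31 ± 0.21. The adjusted p of the 12 ranged from 1.4e-16 to 1.5e-11.

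Among the 12 largest decreases, Nsd1, a methyltransferase of histone H3 lysine 36, stood at 21.7 and 25.5 CPM in parental cells and at 0 counts in both T567D libraries. It was at least 135.5-fold lower, against a floor of 3 counts per library. Nsd1 was also at 0 in the empty-vector and T567A libraries and at 0.12 and 0.057 CPM in the wild-type ones. It lies on chromosome 13, 55209782 to 55318325, and its nearest tested neighbours did not fall with it: Zfp346 on the one side rose by 0.43 and Rab24 on the other had a change of -0.05 that was not called. Mmp2, encoding gelatinase A, fell from 120.2 and 116.9 to 0.75 and 0.70 CPM (-7.34 ± 0.15, adjusted p = 1.5e-19). Ass1, the enzyme that makes argininosuccinate for arginine synthesis, fell from 256.2 and 232.4 to 7.45 and 7.13 CPM (-5.07 ± 0.094, adjusted p = 6.4e-20). The other derived lines had 2.95 to 4.28 CPM of Ass1, and T567D was above wild type by 0.85 (adjusted p = 0.0035). Ass1 lies on chromosome 2, 31470207 to 31520672, between Hmcn2 (-1.30) and Fubp3 (-0.24).

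Renbp, encoding renin-binding protein, fell by 7.41 ± 0.25, from 37.7 and 33.8 to 0.29 and 0.12 CPM. Its neighbour Naa10 on chromosome X changed by -0.76 and Hcfc1 by -0.23. Tlr7, a sensor of single-stranded RNA in endosomes, fell by 5.24 ± 0.14 and Il2rg, the shared cytokine receptor chain, by 5.13 ± 0.27. Both are on chromosome X too. Adgrl1, an adhesion receptor, fell by 6.00 ± 0.29 and the long noncoding RNA Lncpint by 5.53 ± 0.16. Fmnl1 and Avil, which act on actin, fell by 4.30 ± 0.11 and 4.16 ± 0.093. Elfn1 and Medag fell by 5.05 ± 0.18 and 4.12 ± 0.14. All 4 derived lines had these genes below both parental libraries.

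**Figure D1:**
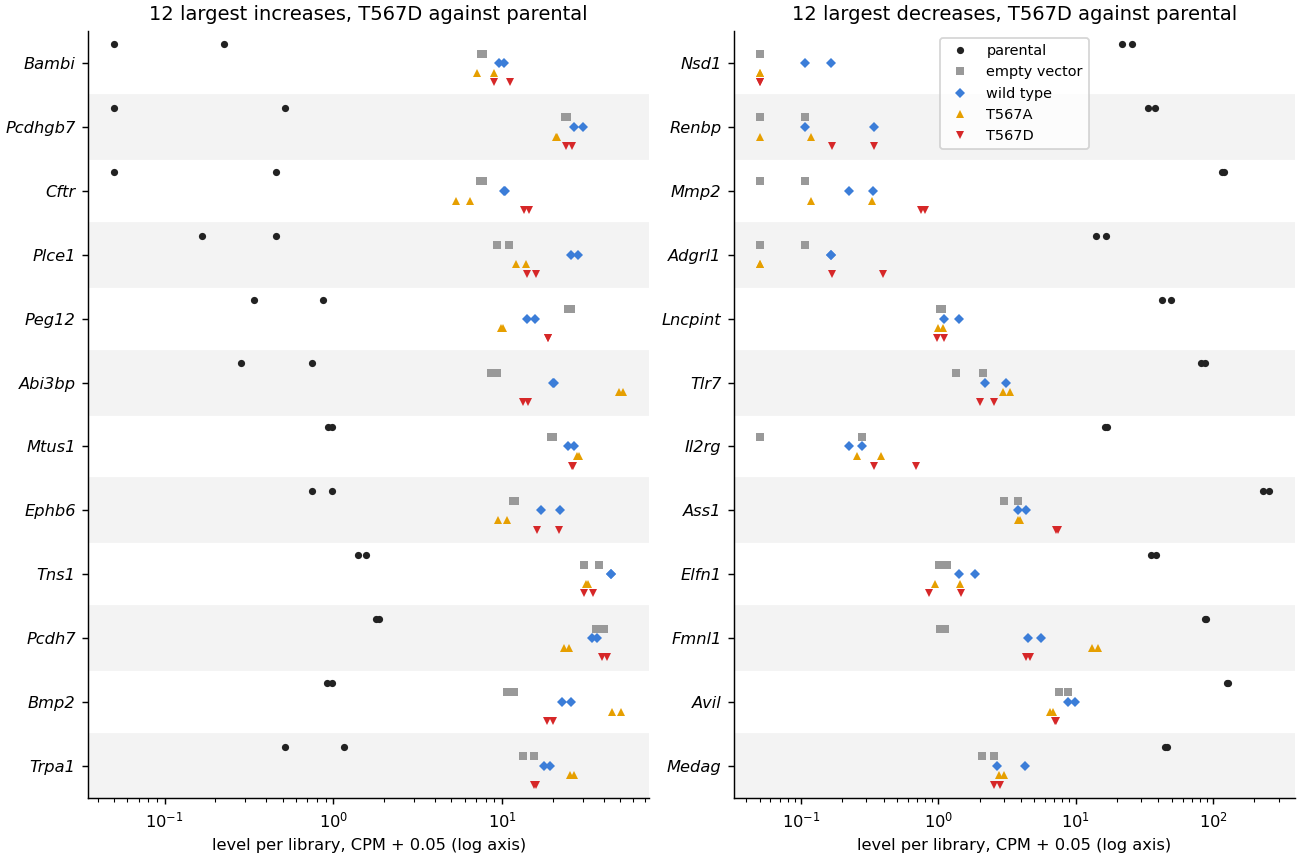
Level of each library on a log axis (CPM + 0.05) for the 12 largest increases (left) and decreases (right) of T567D against parental; each point is 1 library and colour and shape give the line. Parental points lie apart from T567D in each gene shown, and for Nsd1 both T567D libraries are at 0; the other derived lines lie on the T567D side.

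There were 22 genes at 0 counts in both parental libraries and at or above 1 CPM in T567D, and 13, Nsd1 among them, at 0 in both T567D libraries and at or above 1 CPM in parental ones. The first set held matrix genes: Dcn, encoding decorin, at 1.86 CPM in T567D (at least 10.6-fold higher), Postn, encoding periostin (at least 9.97-fold), Smoc1 (at least 7.31-fold) and the sulfatase Sulf1 (at least 7.98-fold). Angpt1, the ligand of the Tie2 receptor, was at least 17.0-fold higher and Ccl20, a chemokine, at least 6.97-fold. In the second set were the potassium channel Kcnk5 (8.68 CPM in parental, at least 49.8-fold lower), the zinc finger gene Zfp422 (at least 33.2-fold) and Nhs on chromosome X (at least 19.4-fold). These names were picked from the 35 after their values were seen. In the other derived lines Kcnk5, Zfp422 and Nhs had means of at most 0.125 CPM. Angpt1 had means of 2.34 to 7.71 CPM there and Ccl20 of 1.24 to 2.99 CPM, while Dcn had 0.187 to 0.546 CPM.

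Matrix genes moved in both directions. Of 23 tested among 36 listed matrix glycoproteins, 14 rose and 5 fell, 60.9% and 21.7% against 27.1% and 28.2% of all genes, with a median of 0.68. Fibronectin, Fn1, was 82.4 and 103.6 CPM in parental and 262.7 and 267.5 CPM in T567D (1.51 ± 0.092, adjusted p = 6.8e-10). Matn2, encoding a matrilin, rose by 1.43 ± 0.15 and Ecm1 by 1.30 ± 0.064, the latter from 186.1 and 182.6 to 458.4 and 452.0 CPM. Emilin1, an elastic-fibre glycoprotein on chromosome 5, rose by 1.40 ± 0.065. The 69 other genes of its window had a median of 1.07. Sparc, encoding osteonectin, fell from 1772 and 1609 to 1029 and 1091 CPM (-0.67 ± 0.06), and Lamb2, a laminin chain, fell by 0.97 ± 0.084.

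Collagens split as well: 10 of 21 tested rose and 6 fell, with a median of 0.08. These were 47.6% and 28.6%, against 27.1% and 28.2% of all genes, so the share that fell was near that of all genes. Col1a1, the main chain of bone collagen, read 1805 and 1827 CPM in parental and 675.3 and 793.9 CPM in T567D libraries (-1.30 ± 0.069, adjusted p = 1e-12). Col1a2, the other chain of type I collagen, changed far less, from 3530 and 3527 to 3100 and 3329 CPM (-0.13 ± 0.055, adjusted p = 0.044). T567D held an intermediate level of Col1a1, since the empty-vector and wild-type lines lay between 246.7 and 326.9 CPM and T567A at 597.7 and 609.0 CPM. It was above wild type by 1.5 (adjusted p = 1.4e-11). Col3a1, a fibrillar collagen of soft tissue, rose from 261.8 and 256.4 to 412.9 and 502.5 CPM (0.82 ± 0.076). Col4a5, a basement membrane chain encoded on chromosome X, rose by 3.31 ± 0.22. Col5a3 fell by 2.70 ± 0.25 and Col12a1 by 1.24 ± 0.10.

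Among enzymes that modify collagen, 8 of 17 rose and 6 fell, 47.1% and 35.3% against 27.1% and 28.2% of all genes. Lox, encoding lysyl oxidase, which cross-links collagen, went from 454.8 and 486.0 to 177.4 and 184.0 CPM (-1.38 ± 0.080, adjusted p = 2.1e-11), and its weakly expressed relatives Loxl1 and Loxl2 fell by 2.73 and 2.11. The hydroxylases Plod1 and P4ha3 rose by 0.90 ± 0.092 and 0.68 ± 0.10. Adamts2, which trims procollagen, fell by 0.41 ± 0.14 (adjusted p = 0.016). That call was lost with DESeq2 (adjusted p = 0.12), with limma on log2(RPKM + 0.1) (0.11) and without parental replicate 3 (0.13) or T567D replicate 3 (0.11). Of 15 proteoglycans 5 rose and 4 fell, 33.3% and 26.7%, both near the shares of all genes. Prelp, a small leucine-rich proteoglycan, fell from 183.6 and 182.0 to 27.2 and 29.1 CPM (-2.70 ± 0.081), and Bgn, encoding biglycan on chromosome X, fell by 0.50 ± 0.068. The heparan sulfate carriers Sdc3 and Gpc1 rose by 1.39 ± 0.10 and 0.97 ± 0.11.

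Matrix proteases and their inhibitors showed 15 rises and 12 falls among 31 tested genes, 48.4% and 38.7% against 27.1% and 28.2% of all genes. Mmp13, an interstitial collagenase, rose from 41.8 and 39.2 to 296.2 and 227.8 CPM (2.69 ± 0.18, adjusted p = 8.8e-06). Mmp9, encoding gelatinase B, rose from 43.1 and 38.7 to 171.8 and 179.7 CPM (2.10 ± 0.078), opposite to Mmp2. Plat, the tissue plasminogen activator, rose by 3.03 ± 0.11 and the stromelysin Mmp3 by 2.39 ± 0.12. Ctsk, encoding the collagen-cleaving cathepsin K, fell from 9.42 and 8.11 to 0.35 and 0.29 CPM (-4.75 ± 0.31). The inhibitor Timp3 fell from 1367 and 1469 to 452.3 and 412.8 CPM (-1.71 ± 0.083), Timp1, on chromosome X, fell by 1.10 ± 0.074, and Timp2 rose by 0.91.

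Integrins, the receptors for matrix, rose in 9 and fell in 5 of 15 tested cases, with a median of 0.52. These were 60% and 33.3%, against 27.1% and 28.2% of all genes. Itgb1, the most widely paired beta chain, rose from 637.3 and 655.9 to 1122 and 1026 CPM (0.73 ± 0.062). Itga1, an alpha chain of a collagen receptor, rose from 0.46 and 0.82 to 4.91 and 5.44 CPM. The other collagen-binding alpha chains differed in direction. Itga11 fell from 62.7 and 60.7 to 5.49 and 6.72 CPM (-3.34 ± 0.12, adjusted p = 1.5e-15) and Itga2 fell by 1.73 ± 0.23, while Itga10 rose by 0.91 ± 0.19. For Itga11 the 28 other genes of its window on chromosome 9 had a median of -0.44. Of 12 cadherins and protocadherins 6 rose and 3 fell, 50% and 25%, among them Pcdh10 (3.02 ± 0.15) and Pcdh1 (-2.12 ± 0.11).

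Cytoskeletal genes gave 14 rises and 7 falls among 33, 42.4% and 21.2% against 27.1% and 28.2% of all genes. Acta2, encoding smooth muscle actin, rose from 12.0 and 10.8 to 58.6 and 59.6 CPM (2.38 ± 0.099, adjusted p = 2.2e-14). The 23 other genes of its window on chromosome 19, which also holds Ifit3b, had a median of 0.41. Fscn1, the filopodial bundling protein fascin, fell from 1275 and 1158 to 516.9 and 526.4 CPM (-1.22 ± 0.072). The adhesion and stress-fibre proteins Zyx and Pdlim7 rose by 0.60 ± 0.074 and 0.62 ± 0.092, and the 12 other genes around Zyx had a median of 1.21. Plec, encoding the linker plectin, rose by 0.82 ± 0.088 and Sept11, encoding a septin, fell by 0.93 ± 0.056. Of 28 genes linked to motility or metastasis 13 rose and 8 fell, 46.4% and 28.6%, the latter near the share of all genes. Cemip, a hyaluronan-degrading factor, fell by 1.34 ± 0.085, the sphingosine phosphate receptor S1pr1 by 1.22 ± 0.086 and the transcription factor Snai2 by 1.03 ± 0.10.

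Bone genes were few and mixed, with 6 of 15 tested rising and 3 falling, 40% and 20% against 27.1% and 28.2% of all genes. Alpl, the alkaline phosphatase of mineralising cells, rose from 2.27 and 1.69 to 13.9 and 11.9 CPM (2.70 ± 0.19, adjusted p = 8.8e-11). Spp1, encoding osteopontin, rose from 171.5 and 165.3 to 253.6 and 251.9 CPM. The regulator Mef2c rose by 0.74 ± 0.10. The 3 that fell were at low levels: the mineralisation phosphatase Phospho1 (-2.97 ± 0.65, from 0.87 and 1.05 to 0.12 CPM in both libraries), Msx1 (-0.61 ± 0.25) and Phex on chromosome X (-0.47 ± 0.17). The abundant marker genes Col1a1, Col1a2 and Sparc, which carry most of the osteoblast marker sum, were lower, as given above. Runx2, the defining transcription factor of the lineage, was 35.7 and 38.4 CPM in parental and 38.6 and 38.2 CPM in T567D (0.05 ± 0.086, adjusted p = 0.63).

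Genes of antigen presentation by class I molecules were lower as a group: 17 of 23 tested fell and 3 rose, 73.9% and 13.04%, with a median of -0.47. Of all genes 28.2% fell and 27.1% rose. None of the 23 was called between T567D and wild type, against 1.34% of all genes. At so low a share, a list of this size can hold no call without differing from all genes. This also holds for the lists below in which no member was called. The immunoproteasome subunit Psmb8 went from 188.1 and 183.5 to 64.7 and 72.2 CPM (-1.44 ± 0.075, adjusted p = 6.9e-13) and Psmb9 fell by 1.04 ± 0.085. The heavy chains H2-K1 and H2-D1 fell by 0.50 ± 0.065 and 0.41 ± 0.062, their light chain B2m by 0.42 ± 0.069, and their regulator Nlrc5 by 0.89 ± 0.12. H2-Q7 fell by 1.92 ± 0.13. Class I genes are near-identical copies of each other, so the split of reads between them is uncertain. Interferon-response genes did not move as 1 group, with 21 of 50 rising (42%), 9 falling (18%) and a median of 0.09. Ifit3b rose from 43.9 and 45.9 to 101.0 and 102.9 CPM (1.18 ± 0.068), whereas Oas2, Oasl1 and Mx2 fell by 1.13 ± 0.11, 1.01 ± 0.093 and 1.15 ± 0.16. In T567A, Ifit3b stood at 375.9 and 397.1 CPM, above every T567D and parental library.

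Chemokines and cytokines rose in 13 and fell in 5 of 24 cases, 54.2% and 20.8% against 27.1% and 28.2% of all genes. The highest of them by level fell: Csf1, the macrophage growth factor, went from 2044 and 2081 to 840.9 and 819.1 CPM (-1.31 ± 0.056, adjusted p = 3.8e-14). It lies on chromosome 3, 107741048 to 107760469, in a window whose 47 other genes had a median of -0.79. Its receptor Csf1r was 1176 and 1183 CPM in parental and 1338 and 1352 CPM in T567D (0.19 ± 0.056). Ccl7 and Ccl9, which attract monocytes, fell by 0.96 ± 0.081 and 0.75 ± 0.072, and Cxcl12 by 0.69 ± 0.065. Cx3cl1, the membrane-bound chemokine, rose by 1.43 ± 0.086, from 18.5 and 16.6 to 47.0 and 47.3 CPM.

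Cholesterol synthesis was lower across most of the pathway. Of 25 genes 16 fell and 3 rose, 64.0% and 12.0%, with a median of -0.34. Between T567D and wild type 1 of the 25 was called, against 1.34% of all genes. Dhcr7, which catalyses a late step, fell by 0.81 ± 0.097. The 3 genes that rose were Insig1 (1.22 ± 0.068), which holds the pathway back, the demethylase Cyp51 (0.86 ± 0.067) and the regulator Srebf2 (0.24 ± 0.064). Both Insig1 and Cyp51 lie in the first part of chromosome 5, where the other genes of their windows had medians of 0.94 and 0.75. Ebp, which fell by 0.88 ± 0.085, is on chromosome X with a window median of -0.87. Among the 21 members that are neither in that part of chromosome 5 nor lower on chromosome X, 14 fell and 1 rose. Of 20 genes of fatty acid synthesis and storage 8 fell and 4 rose, 40% and 20% against 28.2% and 27.1% of all genes, with a median of -0.03. The desaturases Scd2, Fads2 and Fads1 fell by 0.72 ± 0.068, 0.64 ± 0.063 and 0.62 ± 0.063, while Cpt1a, which brings fatty acids into mitochondria, and the ligase gene Acsl1 rose by 0.36 each.

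Other metabolic genes gave smaller shifts. Glycolysis and hypoxia genes fell in 11 and rose in 7 of 27 cases; only 6 fell without parental replicate 1 and 7 without T567D replicate 1. With all libraries the shares of this list were 40.7% lower and 25.9% higher, against 28.2% and 27.1% of all genes. Hk2, encoding hexokinase 2, fell by 0.67 ± 0.095 and Pfkp, a phosphofructokinase, rose by 1.00 ± 0.13. Targets of the oxidant sensor NRF2 rose in 15 and fell in 5 of 30 cases, 50% and 16.7% against 27.1% and 28.2% of all genes. None of the 30 was called between T567D and wild type, against 1.34% of all genes. Hmox1, encoding heme oxygenase 1, went from 67.5 and 67.2 to 173.6 and 172.8 CPM (1.36 ± 0.070, adjusted p = 6.7e-13), and Nqo1, Akr1b8 and Aox1 rose by 1.23 ± 0.073, 1.14 ± 0.078 and 2.87 ± 0.14. Of 14 arginine and polyamine genes 6 fell and 3 rose, 42.9% and 21.4% against 28.2% and 27.1% of all genes. Beside Ass1, the polyamine enzymes Odc1, Srm and Sms fell by 0.58, 0.51 and 0.69, Oat by 0.59 and the transporter Slc7a3 by 2.68. Both Sms and Slc7a3 lie on chromosome X. The nitric oxide synthase genes rose at low levels, Nos3 from 0.35 and 0.47 to 2.08 and 1.75 CPM and Nos1 from 0 in both parental libraries to 0.87 and 0.64 CPM. Nos3 lies in the first part of chromosome 5. Azin2 rose by 0.76 ± 0.20, a call lost without parental replicate 3 (adjusted p = 0.055). Of 13 mitochondrially encoded genes only mt-Co3 was called (0.34 ± 0.10), and it was lost without parental replicate 1 or either T567D library (adjusted p of 0.093, 0.070 and 0.068). In a fit of only the 4 libraries 4 of the 13 rose.

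Cell cycle and replication genes had the highest number of falls of any list: 31 of 42 fell and 3 rose, 73.8% and 7.14%, with a median of -0.32. Of all genes 28.2% fell and 27.1% rose. None of the 42 was called between T567D and wild type, against 1.34% of all genes. None of the falls reached 2-fold. Mcm6 and Mcm2, subunits of the replicative helicase, went from 421.7 and 434.4 to 244.3 and 236.2 CPM (-0.83 ± 0.057, adjusted p = 7.1e-11) and from 414.6 and 431.0 to 270.1 and 252.9 CPM (-0.69 ± 0.065). Ccnd1, the cyclin of early G1, went from 1300 and 1268 to 814.4 and 777.3 CPM (-0.69 ± 0.055). The 3 that rose were Tyms (0.83 ± 0.064), Cdk6 (0.44) and the inhibitor Cdkn1a (0.32 ± 0.061). Both Tyms and Cdk6 lie in the first part of chromosome 5, and the 69 other genes of the Tyms window had a median of 1.08. Among the list members outside that part of chromosome 5, 1 rose and 31 fell. Mki67, a marker of cycling cells, was 386.0 and 458.6 CPM in parental and 460.9 and 424.6 CPM in T567D, with overlap (adjusted p = 0.55). Growth rate was not analysed here.

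Promoters of these genes are shown for a pair of helicase subunits because their fall was shared by the list. E2F factors switch on replication genes through sites close to the start, read here as TTTCCCGC, TTTGGCGC or TTTCGCGC on either strand, in the 300 bases from 250 before to 50 after the start (RefSeq, GRCm38.p6). Of the 34 list members with an entry, 10 held a motif, and these were 10 of the 27 that fell and 0 of the 3 that rose. Over all 32851 promoters the share was 1.84%. The list was counted by gene and all promoters by entry, so the shares are not of like kind. The list was also chosen by function, so its share of E2F sites does not bear on the fall. The 3 that rose are too few for a contrast. Capitals mark a match, which begins 47 bases before the start in Mcm6, at chr1:128359725-128359784 on the minus strand. In Mcm5, at chr8:75109324-75109383 on the plus strand, it begins 153 bases before the start. There another match, TTTGGCGC on the other strand, overlaps the marked one and runs on into the lower-case letters.
Mcm6: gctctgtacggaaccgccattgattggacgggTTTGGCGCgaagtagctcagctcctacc
Mcm5: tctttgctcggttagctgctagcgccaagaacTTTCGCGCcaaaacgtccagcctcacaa
A match describes the letters only. Mcm2 was searched as well and gave no match before its start. A further motif, CHR (TTTGAA), was read on the same list. It was held by 10 of the 34, by 7 of the 27 that fell and 0 of the 3 that rose, against 17.9% of all promoters. On the NRF2 list the motif ARE (TGACNNNGC) was read in the same way. There 10 of 26 members held it, 6 of the 14 that rose and 1 of the 5 that fell, against 12.4% of all promoters. That list too was counted by gene and chosen by function. Nqo1, Hmox1 and Aox1 were searched for it and gave no stretch to show. Mcm5 itself fell from 511.7 and 497.4 to 360.4 and 361.0 CPM (-0.48 ± 0.060).

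Of 40 translation factors 19 fell and 1 rose, 47.5% and 2.5% against 28.2% and 27.1% of all genes, with a median of -0.11. None of the 40 was called between T567D and wild type, against 1.34% of all genes. Without parental replicate 1 the number that fell was 11 of 40, a share near that of all genes. Eef2, the elongation factor that moves the ribosome, went from 7200 and 7105 to 4331 and 4452 CPM (-0.70 ± 0.056, adjusted p = 7e-10). The only one to rise, Eif2b4 (0.91 ± 0.086), lies in the first part of chromosome 5. RNA helicases fell in 17 and rose in 6 of 35 cases, 48.6% and 17.1% against 28.2% and 27.1% of all genes. None of the 35 was called between T567D and wild type, against 1.34% of all genes. Ddx20 fell most, by 1.55 ± 0.075, and lies in the same window of chromosome 3 as Csf1. Histone methyltransferases fell in 14 and rose in 8 of 29 cases, 48.3% and 27.6%, the latter near the share of all genes. Beside Nsd1, Ehmt1 fell by 1.67 ± 0.077 among 22 genes of chromosome 2 with a median of -1.44, and Kmt2e and Kmt2c rose by 1.38 ± 0.072 and 1.30 ± 0.11 among genes of chromosome 5 with medians of 0.98 and 0.94.

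Immediate readouts of MAPK signalling rose in 17 and fell in 4 of 28 cases, 60.7% and 14.3%, with a median of 0.44. None of the 28 was called between T567D and wild type, against 1.34% of all genes. The ETS factors Etv1 and Etv5 rose by 1.59 ± 0.13 and 1.19 ± 0.091, the feedback inhibitors Spry4 and Dusp6 by 1.15 ± 0.12 and 0.89 ± 0.076, and the AP-1 subunit Fosl2 by 1.13 ± 0.058. Fosl2 lies in the first part of chromosome 5, with a window median of 1.07. Etv4 went the other way (-0.82 ± 0.11). Members of the TGF-beta and BMP families divided, with 15 of 34 rising and 12 falling, 44.1% and 35.3% against 27.1% and 28.2% of all genes. The ligand Tgfb1 rose from 24.8 and 24.8 to 48.8 and 51.3 CPM (1.01 ± 0.076), while Tgfb3 fell by 1.95 ± 0.14 and the receptor Tgfbr2 from 370.3 and 367.2 to 142.8 and 161.5 CPM (-1.28 ± 0.079). Bmp4 fell from 257.5 and 236.2 to 109.3 and 113.8 CPM (-1.15 ± 0.062), and Bmp2 had risen from under 1 CPM. The receptor Acvrl1 rose by 3.29 ± 0.27.

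Wnt5a, a ligand of the beta-catenin-independent branch, rose from 1.57 and 1.46 to 18.8 and 18.9 CPM (3.63 ± 0.16), while the receptors Fzd2 and Lrp5 fell by 1.22 ± 0.12 and 0.91 ± 0.083. Of the 17 tested Wnt genes 6 rose and 7 fell, 35.3% and 41.2% against 27.1% and 28.2% of all genes. Among 15 Notch genes 7 rose and 2 fell, 46.7% and 13.3% against 27.1% and 28.2% of all genes. The ligand Jag1 rose by 1.84 ± 0.15 and the target Hey1 by 0.96 ± 0.16. The 7 other genes of the Jag1 window had a median of 0.58. The 2 that fell were the glycosyltransferase Lfng, by 1.14 ± 0.13, and the feedback regulator Nrarp, by 1.31 ± 0.25. Igfbp4, which binds insulin-like growth factors, fell from 157.8 and 144.7 to 30.8 and 28.9 CPM (-2.34 ± 0.074, adjusted p = 3.3e-16), and Igf2r rose by 1.09 ± 0.078. Pdgfb and Pdgfc, ligands of the platelet-derived family, fell by 1.18 ± 0.090 and 1.75 ± 0.086, the latter among 13 genes with a median of -0.56. Ccn3 and F3, on the list of YAP targets and CCN genes, rose by 4.26 ± 0.14 and 4.72 ± 0.26, but 9 of the 19 genes of that list fell and 5 rose. These were 47.4% and 26.3%, the latter near the share of all genes. Amotl2, a target and partner of YAP, went from 786.3 and 818.4 to 415.9 and 437.6 CPM (-0.91 ± 0.059).

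**Figure D2:**
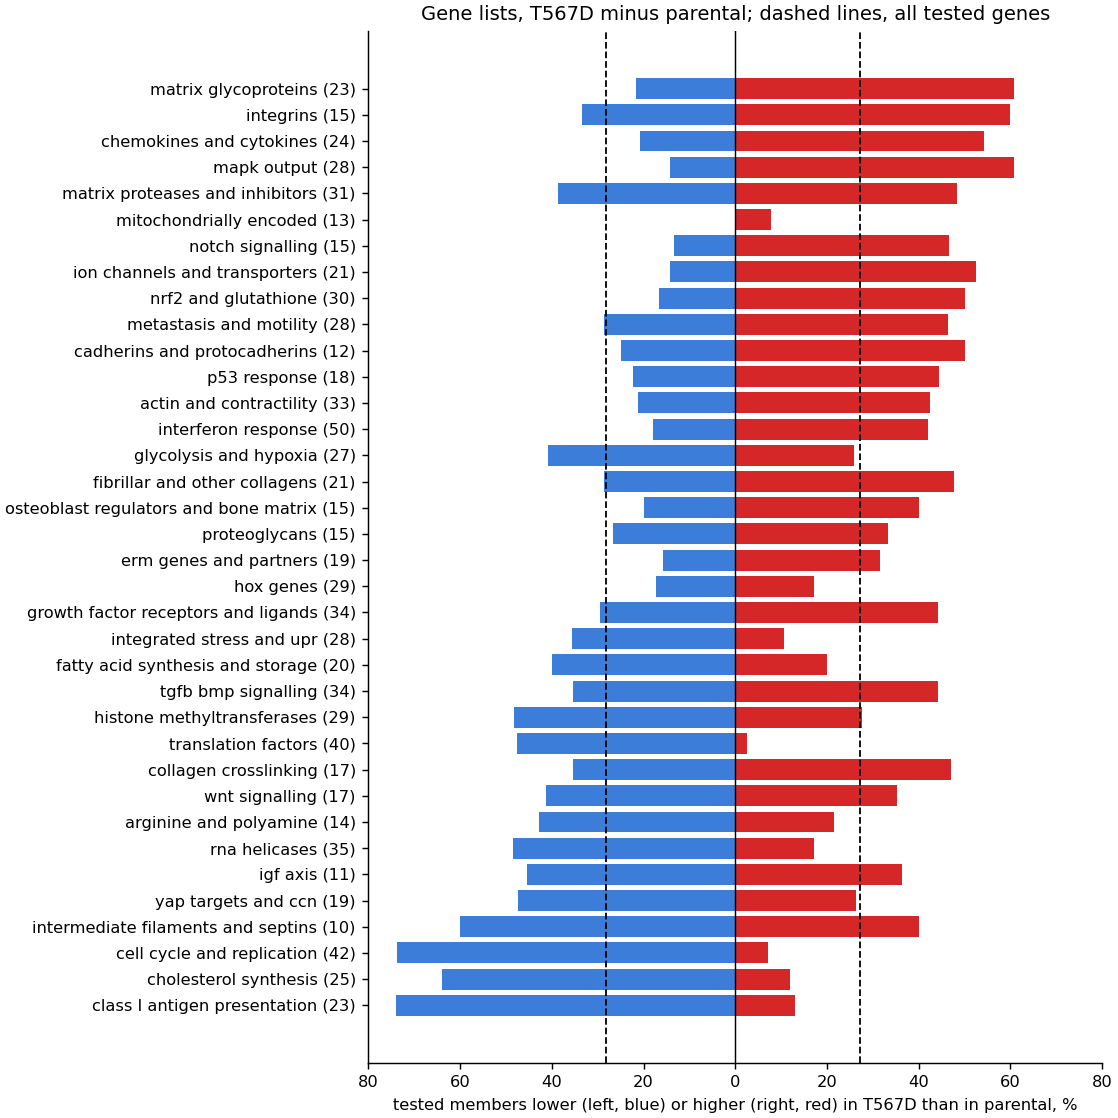
Share of the tested members of each list (number in brackets, lists with at least 10) that were lower (left, blue) or higher (right, red) in T567D than in parental, in %, ordered by the list median; dashed lines give 27.1% higher and 28.2% lower over all tested genes. Class I, cholesterol and cell cycle lists reach 64.0% to 73.9% lower, and matrix glycoproteins, integrins and MAPK output reach 60% to 60.9% higher.

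The change also varied with position along the chromosomes, which the choice of samples did not use. The genome was read in 5 Mb windows of the start positions, and 436 windows held at least 8 tested genes. In 311 of them the median change lay within 0.25 of 0, in 23 it was below -0.5 and in 22 above 0.5. The stretches described next were picked after these medians were seen, so they carry no test. DNA copy number was not analysed here, and its part in these shifts was not tested.

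On the first 50000000 bases of chromosome 5, 191 of 217 tested genes were higher in T567D, 88.0% against 27.1% of all genes, and 10 were lower. Their median change was 0.99, with quartiles of 0.78 and 1.26. The other 589 genes of the chromosome had a median of -0.03. Every derived line showed this step, with medians against parental of 1.07 in the empty-vector, 1.00 in the wild-type and 0.88 in the T567A line. These comparisons, and those on chromosome X below, share the parental libraries and are not independent of each other. In 1 window, 30000001 to 35000000, 69 of 70 genes were higher. The opposite held on chromosome 2 from 15000001 to 25000000, where the medians of its 2 windows were -1.29 and -1.45. From 105000001 to 110000000 on chromosome 3, 35 of 48 genes fell, where 28.2% of all genes fell, and the median was -0.80. Chromosome 13 as a whole had a median of 0.32, with 250 of 479 genes higher (52.2%, against 27.1% of all genes). Chromosome 9 had a median of -0.23, with 336 of 680 lower (49.4%, against 28.2% of all genes).

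Chromosome X carried the broadest shift. Of its 373 tested genes 276 fell (74.0%, against 28.2% of all) and 36 rose, with a median of -0.59. The chromosome held 2.96% of tested genes but 7.76% of those that fell. The X profile was not the same in every derived line. Up to base 60000000 the median was -0.83 in T567D, -0.81 in the empty-vector, -0.83 in the wild-type and -0.76 in the T567A line, and none of the 121 genes differed between T567D and wild type. Beyond it the median was -0.50 in T567D, -0.75 in the empty-vector, -0.63 in the wild-type and -0.54 in the T567A line. There 22 of 252 genes (8.73%, against 1.34% of all) were called between T567D and wild type, 19 of them higher in T567D. From 70000001 to 75000000, 11 of 46 genes were called higher than in wild type and none lower. Bgn lies at this place.

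**Figure D3:**
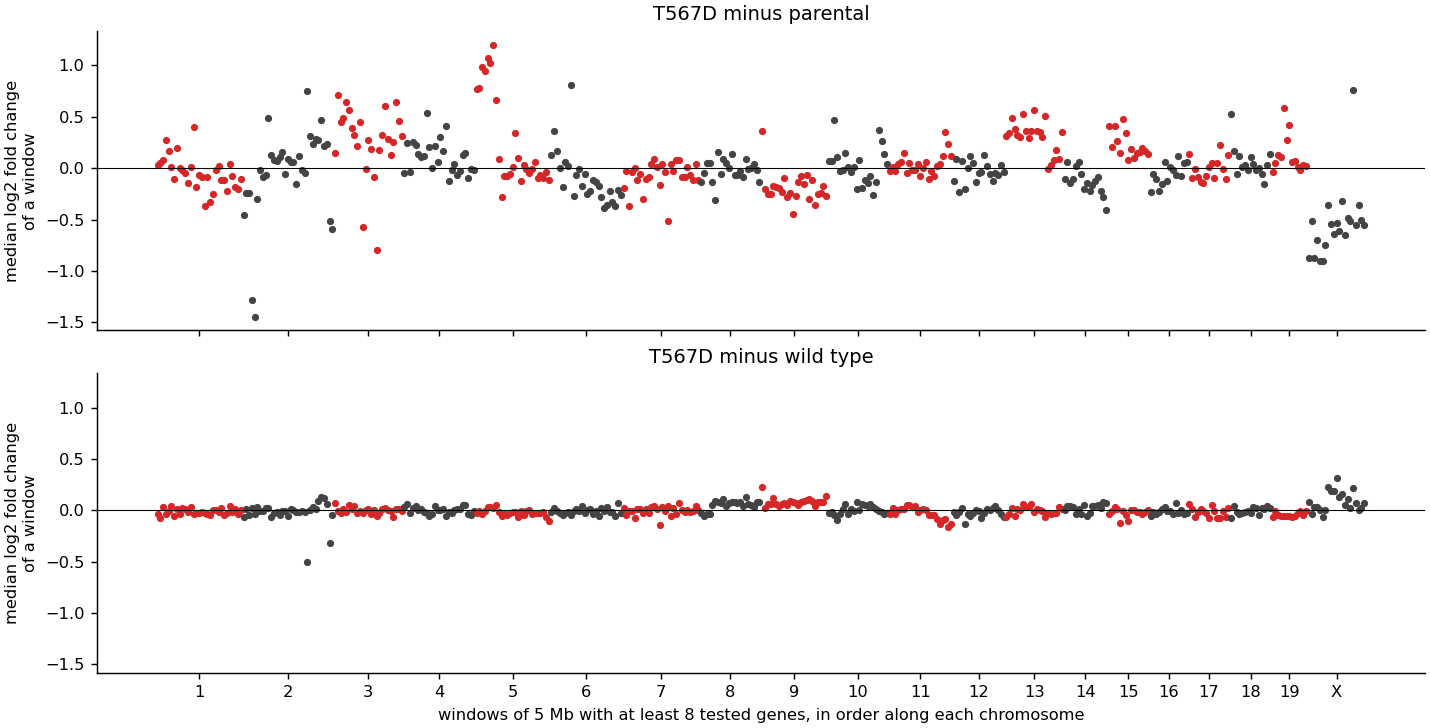
Median log2 fold change of each of 436 windows, in order along the chromosomes (colours alternate by chromosome), for T567D minus parental (top) and T567D minus wild type (bottom) on the same scale. The first windows of chromosome 5 stand near 1, a pair on chromosome 2 at -1.29 and -1.45 and chromosome X mostly below 0 in the upper panel; in the lower panel 6 windows pass 0.2 in either direction.

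**Figure D4:**
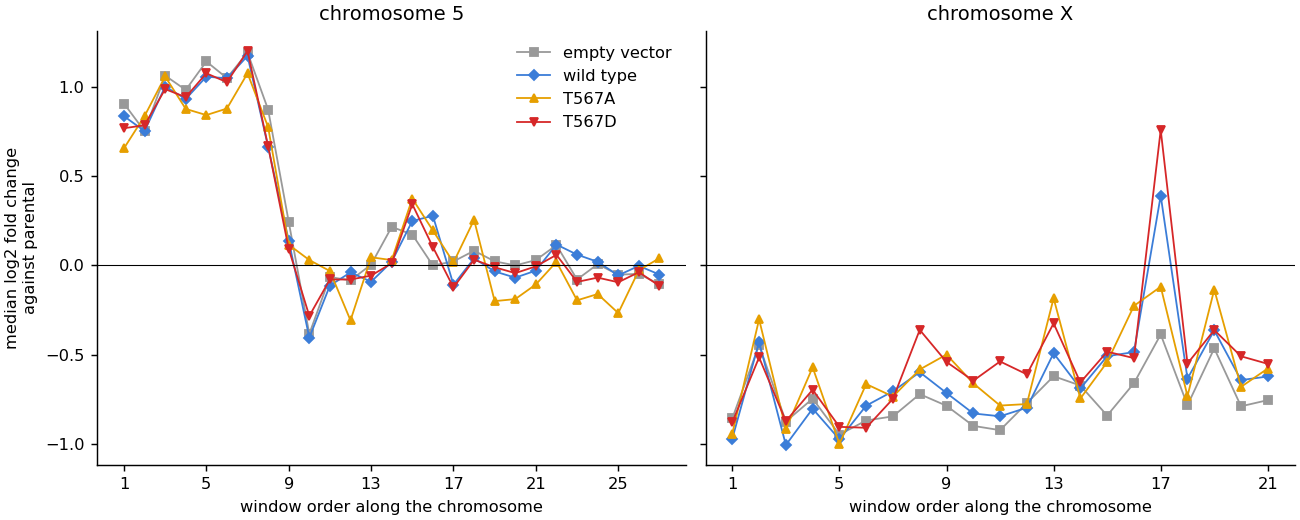
Median log2 fold change by window along chromosomes 5 and X for each derived line, all against the same parental libraries. The 4 lines lie near each other on chromosome 5, and on chromosome X after base 60000000 T567D (red) lies above the empty-vector line in each window and above wild type in all but 1, for example at -0.36 against -0.72 and -0.60 from 70000001 to 75000000; T567A lies above T567D in several of them, for example at -0.18 against -0.32 from 105000001 to 110000000.

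A smaller set of genes placed T567D outside every other line of the series. Called in 1 direction against parental, empty-vector, wild-type and T567A libraries alike were 26 genes, 24 higher (0.191% of 12595) and 2 lower (0.0159%). The number depended on the settings: 14 with DESeq2, 9 without wild-type replicate 3, 15 without wild-type replicate 1, 16 without T567D replicate 1 and 40 and 39 without T567A replicates 2 and 3. All 9 of the second count were among the 26.

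Among those of the 24 that rose over 2-fold against parental, Fn1 was the most abundant, at 262.7 and 267.5 CPM, and the next highest line, wild type, had 172.9 and 162.5 CPM (0.66 ± 0.089, adjusted p = 0.00087). Egln3, the prolyl hydroxylase that marks HIF for destruction, was 24.3 and 25.3 CPM in T567D, 14.5 and 13.7 in parental, 16.0 and 15.0 in wild-type, 7.69 and 9.43 in empty-vector and 1.86 and 2.17 CPM in T567A libraries. Lcp1, encoding the actin bundler L-plastin, was 16.6 and 14.8 CPM in T567D against 2.91 and 3.62 in parental and 8.96 and 8.97 CPM in wild-type libraries. Acta2, at 58.6 and 59.6 CPM, also stood above wild type, at 48.0 and 41.8 CPM. Myo7a, an unconventional myosin, was 8.95 and 11.2 CPM in T567D and at most 6.94 CPM elsewhere.

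Hey1, the Notch target, was 14.1 and 10.9 CPM in T567D and between 6.01 and 9.03 CPM in the 8 other libraries. Lrrc75b reached 56.2 and 51.6 CPM against at most 37.6 elsewhere. Ltbp3, which stores latent TGF-beta in the matrix, was 275.3 and 282.7 CPM against 233.0 and 219.1 in wild type. Pmepa1, a feedback inhibitor of TGF-beta signalling, was 38.1 and 54.9 CPM in T567D, at most 34.6 in parental and 5.45 and 5.73 CPM in T567A libraries. Dcn, Cd28, Fabp4 and Pdzd4 were highest in T567D too but stayed under 8 CPM. Of the rest, Mmp15, Cadm1, Galnt10, Pkd1, Ston1, Nrap, Cplx2 and Gm17501 were higher by 0.31 to 0.65 than wild type, and F8a, Ids and Magee1 lie on chromosome X after base 60000000, as does Pdzd4. The 2 lower genes were Adm2, at 6.01 and 6.604 CPM against at least 7.56 CPM elsewhere, and Trmt10a, a tRNA methyltransferase, at 62.6 and 59.7 CPM against 73.7 to 81.6 CPM.

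**Figure D5:**
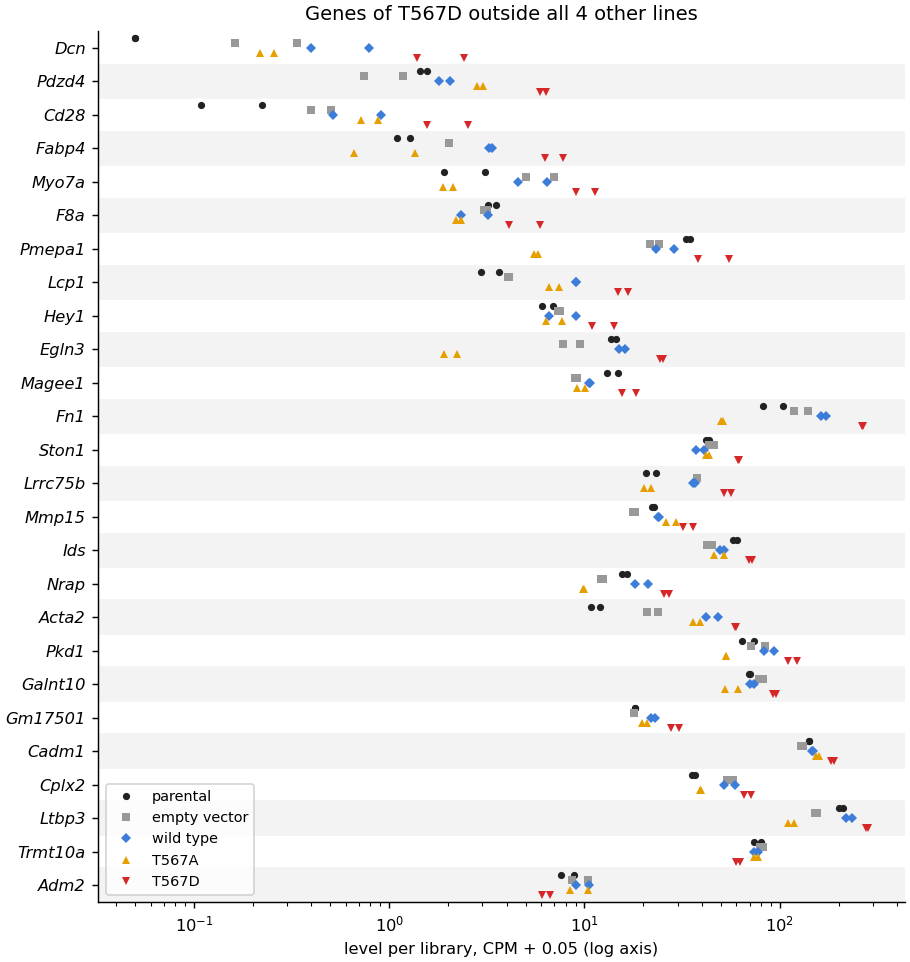
Level of each library (CPM + 0.05, log axis) for the 26 genes called in 1 direction between T567D and all 4 other lines, ordered by T567D minus wild type; each point is 1 library. The T567D points (red) lie to the right of all others in 24 genes and to the left in Trmt10a and Adm2.

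Several genes that set T567D apart from wild type brought it nearer to parental cells without reaching them. Beside Col1a1 and Ass1 these were Prelp, at 27.2 and 29.1 CPM against 14.6 and 16.5 in wild type (0.86, adjusted p = 2.8e-05), Pdgfb, at 29.1 and 35.0 against 19.7 and 19.4 (0.71, adjusted p = 0.00051) and Cxcl12, at 137.0 and 148.7 against 118.1 and 112.4 (0.31, adjusted p = 0.017). Others moved away from parental: Mmp9 was above wild type by 0.48 (adjusted p = 0.00086) and Igfbp4 below it by 0.34 (adjusted p = 0.035). These genes were picked from the 169 after their values were seen.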

How the data were processed

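The authors deposited, for each of the 10 libraries, raw counts per gene name and RPKM values; the counts are whole numbers that sum to a different total in each library, and the deposited RPKM values are normalized by gene length and read total. The genome build was GRCm38, per the submitters' processing notes. Aligner, counting program, gene models and strand option were not given in the sources. Overlapping, antisense and near-identical genes therefore have uncertain counts. Of the names, 173 are numbered copies of another.

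The test was edgeR 4.0.16 under R 4.3.3 (filterByExpr with a minimum count of 10 and total of 15, TMM, 1 robust quasi-likelihood fit of 5 group means over 10 libraries, 5 residual degrees of freedom). Total counts lay between 14679424 and 18230763. Counting intervals are exact binomial at 95%, floors are 3 counts per library, and both cover counting error only. No 2 files held identical counts; libraries of a line differed by more than sampling noise (chi-square per degree of freedom 4.19 in parental, 4.35 in T567D).

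Named genes are Ezr, Msn and Rdx, the 12 largest called increases and decreases (annotated, no pseudogenes or unnamed models, at least 10 CPM in the higher line, no overlap), up to 4 called members per list with at least 5 CPM and the 6 most extreme genes in either direction among those beyond all lines. Other list members are named to show both directions of a list and were chosen after their values were seen. The members, the 38 pathway and 8 marker lists and the rules were chosen with earlier results of these data known. Positions are from GENCODE M21 (12422 of 12595 tested genes matched by symbol), promoters from RefSeq. Other settings tried were DESeq2 1.42.0, scaling by RLE or the upper quartile, a filter of 5 CPM in 2 libraries or none, the replicate block, only the 4 libraries, an adjusted p under 0.01, a test against 1.5-fold, limma 3.58.1 on log2(RPKM + 1) and log2(RPKM + 0.1), and leaving out each library. Some list members are not reported here.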

Additional observations from a re-analysis of the deposited data

Results flagged for a closer look

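For a few genes the change from parental had opposite directions in T567D and another derived line, and the difference between the 2 lines, which share the parental libraries, passed edgeR's quasi-likelihood test. Against the empty-vector line the difference was 1.41 for Ezr (log2; 0.22 in T567D, -1.18 in empty vector, adjusted p = 3.2e-12), 1.53 for Egln3 (adjusted p = 5.3e-09) and -1.04 for Adamts2 (adjusted p = 9.3e-06). Against T567A it was 3.60 for Egln3 (0.82 in T567D, -2.79 in T567A, adjusted p = 7.4e-14), 2.39 for Fn1 (1.51 and -0.88, adjusted p = 1.2e-11), 1.49 for Angptl2, an angiopoietin-like secreted protein (adjusted p = 3.7e-11), and 0.965 for Pdlim7 (adjusted p = 8.8e-08). It was negative for Mx2 (-2.12, adjusted p = 4.1e-10), Nlrc5 (-1.28, adjusted p = 3.4e-07), Ccl7 (-1.65, adjusted p = 8.5e-13) and Scd2 (-1.48, adjusted p = 4.9e-13), which fell from parental in T567D and lay above it in T567A.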

How the results depend on the processing

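The 6972 genes called between T567D and parental were 5495 to 7171 under the other settings tried, except 1751 in the test against 1.5-fold, and 5784 to 6045 with a library left out. Genes over 2-fold were 445 higher and 330 lower with the filter of 5 CPM (fewer genes tested), 254 and 208 with limma on log2(RPKM + 1), and 916 to 982 and 590 to 631 with a library left out. The share of calls that were higher, 49.0%, rose to 52.9% with upper-quartile scaling, 50.4% with the 5 CPM filter and with only the 4 libraries, 55.1% and 56.1% with limma, and 58.9% in the test against 1.5-fold. The 26 genes beyond all lines became 14 with the replicate block, 14 with DESeq2, 16 and 12 with limma on log2(RPKM + 1) and log2(RPKM + 0.1), 9 at an adjusted p under 0.01, 1 in the test against 1.5-fold, and 9 to 40 with a library left out; the cause was not tested. Same-numbered parental and T567D libraries had a correlation of deviations from their line means of -0.0469. With 2 libraries per line both replicate numbers give this same value by construction, so it is a single value. With the replicate block 6674 genes were called, among them 7 mitochondrially encoded genes that rose. Of 169 named genes, 162 kept their call and direction in all settings but the 2 stricter thresholds; the others were Ezr, Adamts2, Gadd45a, mt-Co3, Azin2, Meis2 and Kcnq1ot1. No direction reversed. Of 1140 list counts under other settings, 116 moved by over 1.5 times. At these depths 3 counts are 0.167 to 0.207 CPM, which limits changes of genes near 0.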
